A study of Mus musculus with 2 samples.

Results

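The genes of galactolipid and sphingolipid metabolism were examined in optic nerves of *Tcf7l2* mutant and control mice at P12, when the nerve is being myelinated. The set held 10 genes of 23951 symbols found in both libraries, chosen by name for their enzymatic step, 9 in synthesis and 1 in breakdown. All 10 were among the 14199 genes compared, since each had more than 1 FPKM in both libraries. The control library (1 library) came from mice with the genotype Tcf7l2 c/+; OLig1-cre, which carry 1 floxed *Tcf7l2* allele, and the mutant library (1 library) from Tcf7l2 c/c; OLig1-cre mice, in which both alleles are floxed, designated *Tcf7l2*ΔHMG. *Olig1*-Cre, active in the oligodendrocyte (OL) lineage, was present in both groups, so the control is heterozygous for the deletion rather than wild type. The deleted exon encodes the DNA-binding HMG box, and the mutant mRNA can still be made. The number of animals behind each library is not given in the sources used here.

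Sphingolipids are built on ceramide. Serine palmitoyltransferase, a ketosphinganine reductase, a ceramide synthase and a desaturase make ceramide in succession in the endoplasmic reticulum, and myelinating OLs then add galactose to much of it to form galactosylceramide, part of which is sulphated to sulphatide. Both galactolipids are characteristic of myelin, which is rich in forms with very long and hydroxylated acyl chains. In the lysosome galactosylceramide is cleaved by galactosylceramidase, and its loss causes the demyelinating Krabbe disease.

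Expression was measured by RNA-seq and is given as FPKM, fragments scaled to transcript length and to the depth of the library, with the confidence interval that Cufflinks attached to each value. The interval covers sampling and assignment of fragments within a library and not variation between animals. The control library held about 27624000 fragments and the *Tcf7l2*ΔHMG library about 39938000, a ratio of 1.45, as read from the interval bounds of short rows. With 1 library per genotype no difference has a replicate check, and no test was made. The log2 ratio of *Tcf7l2*ΔHMG to control FPKM, computed after 0.1 FPKM was added to both, had a median of 0.05 over all genes compared, and 90% of these genes lay between −0.83 and 1.18. *Tcf7l2* itself had 17.8 FPKM in control (interval 16.7 to 18.9) and 14.6 FPKM in *Tcf7l2*ΔHMG nerves (13.9 to 15.4), which does not test the deletion because the value covers the whole transcript.

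The tissue label was checked against cell type markers. All 12 mature OL markers were detected in both libraries, with a summed level of 32629 FPKM in the control library and 18713 FPKM in *Tcf7l2*ΔHMG. All 12 were lower in *Tcf7l2*ΔHMG, with a median log2 ratio of −0.94. The OL precursor list summed to 490.7 and 409.0 FPKM, with 6 of 8 markers lower. Astrocyte markers (4928 and 5756 FPKM, 7 of 8 higher), microglial markers (241.7 and 319.0 FPKM, 7 of 8 higher), meningeal fibroblast markers (7142 and 14295 FPKM, 7 of 7 higher), neuronal markers (34.6 and 56.2 FPKM, 6 of 6 higher) and red blood cell genes (162.9 and 402.7 FPKM, 6 of 6 higher, with paired globin genes in shared rows) were mostly higher in the mutant. Most of the meningeal fibroblast sum came from a single gene, *Ptgds* (6009 and 12780 FPKM, log2 ratio 1.09). The median log2 ratio of the fibroblast list was smaller, at 0.49. Endothelial markers summed to 162.0 and 129.7 FPKM, with 5 of 7 lower, and pericyte and smooth muscle markers to 102.8 and 122.9 FPKM, with 4 of 6 higher and *Tagln* listed at 0 in the control. In bulk tissue, fewer cells of a type and less RNA per cell cannot be told apart, and the part of this shift in the values that follow was not tested.

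Of the 10 genes, 8 had a lower FPKM in *Tcf7l2*ΔHMG optic nerves and 2 a higher one, with a median log2 ratio of −0.42. A single gene, *Ugt8a*, was lower by a fold change above 1.5, the cutoff used for the RNA-seq in the study, beside 8.52% of all genes compared. A single gene, *Kdsr*, was higher by more than 1.5-fold, beside 15.4% of all genes. Both also passed a fold change of 2, which 3.68% of genes passed downward and 6.87% upward. Separate intervals were found for 7 of the lower genes, beside 22.3% of all genes, and for both higher ones, beside 30.0% of all genes, so that they were common in these libraries at large. Of all genes compared, 45.4% were lower in the mutant, by any amount.

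**Figure D1:**
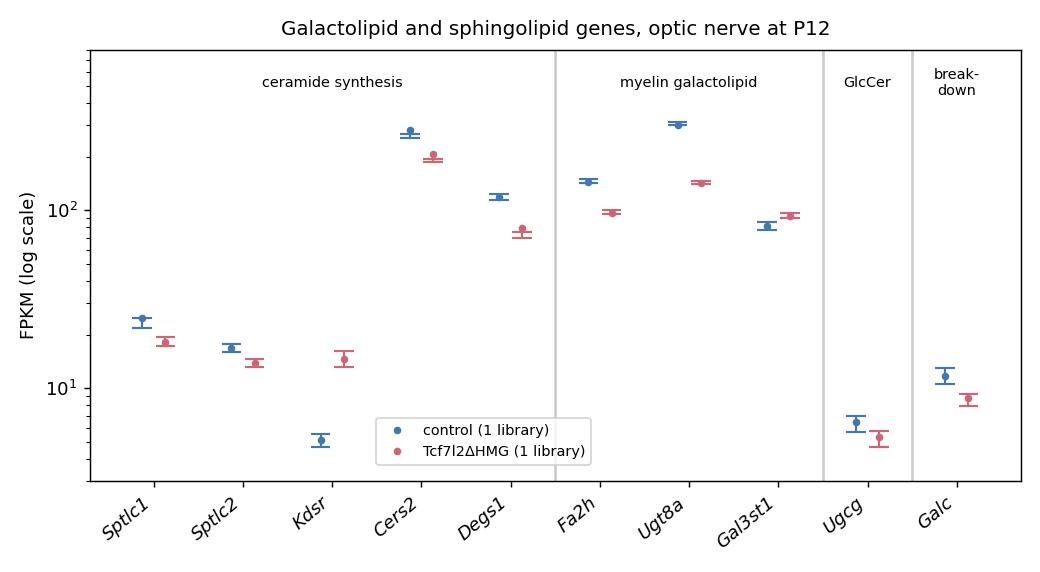
FPKM (log axis) of the 10 genes in the control (blue) and *Tcf7l2*ΔHMG (red) library, 1 library each; points are FPKM and bars with caps the Cufflinks interval, and the columns are grouped by step, GlcCer standing for glucosylceramide synthesis. The red point lies below the blue one for 8 genes and above it for *Kdsr* and *Gal3st1*, and the points of *Cers2* in both libraries and of *Degs1* in the mutant lie outside their bars.

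The 3 genes of the myelin galactolipid branch did not move together, with *Ugt8a* and *Fa2h* lower in the mutant and *Gal3st1* slightly higher. *Ugt8a* encodes the UDP-galactose:ceramide galactosyltransferase that makes galactosylceramide, and the files place it on chromosome 3 from 125568261 to 125641468 in mm9, the build named in the submitters' processing notes. Its level was 303.0 FPKM in the control (interval 302.5 to 312.2) and 141.7 FPKM in the mutant (140.8 to 146.3), a log2 ratio of −1.10, and 3.17% of all genes compared had a lower ratio. The control value was 2.14 times the mutant value, and the intervals lay far apart.

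*Fa2h* encodes fatty acid 2-hydroxylase, which supplies the hydroxylated acyl chains of myelin galactolipids, and lies on chromosome 8 from 113869038 to 113917721 (mm9). It had 144.1 FPKM in the control (141.6 to 149.6) and 97.0 FPKM in the mutant (95.1 to 100.7), a log2 ratio of −0.57. The control value was 1.49 times the mutant value, just short of the cutoff.

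*Gal3st1* encodes the cerebroside sulphotransferase that converts galactosylceramide to sulphatide, and lies on chromosome 11 from 3883639 to 3899331 (mm9). It was the only gene of this branch that was higher in the mutant, with 81.3 FPKM in the control (77.6 to 85.3) and 92.95 FPKM in the mutant (90.3 to 97.1), a log2 ratio of 0.19. The intervals were separate, but the difference was small against the spread of all genes, 63.0% of which had a lower ratio, and it turned to −0.48 when each library was rescaled to the same total over every row, a scale that moved the median of all genes to −0.63.

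Ratios between these genes within a library were compared as well. *Ugt8a* stood at 3.73 times the level of *Gal3st1* in the control and at 1.52 times in the mutant, a change of −1.29 on the log2 scale that library scaling leaves as it is. Against *Fa2h*, the *Ugt8a* level was 2.103 times as high in the control and 1.46 times in the mutant. In the mutant, *Fa2h* and *Gal3st1* were at overlapping levels (ratio 1.04), whereas the intervals of each gene in the control were separate from those of its neighbours in the order of levels.

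Promoter sequences from RefSeq (GRCm38.p6) are shown for *Ugt8a*, which had the lowest ratio of the set, and for *Gal3st1* and *Kdsr*, which alone had ratios above 0, since Tcf7l2 belongs to the TCF/LEF family of DNA-binding proteins and Sox10, a Sox family protein, is a regulator of OL genes. Each runs from 250 bases before the start that RefSeq lists to 50 bases after it, 5′ to 3′ in the direction of the gene, and capitals mark matches to the TCF/LEF words AACAAAG or ATCAAAG or TACAAAG or TTCAAAG, or to the Sox words ACAAAG or ACAATG, on either strand. The words that begin with AAC and TAC contain the first Sox word. The *Ugt8a* promoter is chr3:125938603-125938902 on the minus strand, the *Gal3st1* promoter chr11:3983386-3983685 on the plus strand, the most upstream of 3 listed, and the *Kdsr* promoter chr1:106759693-106759992 on the minus strand.
Ugt8a: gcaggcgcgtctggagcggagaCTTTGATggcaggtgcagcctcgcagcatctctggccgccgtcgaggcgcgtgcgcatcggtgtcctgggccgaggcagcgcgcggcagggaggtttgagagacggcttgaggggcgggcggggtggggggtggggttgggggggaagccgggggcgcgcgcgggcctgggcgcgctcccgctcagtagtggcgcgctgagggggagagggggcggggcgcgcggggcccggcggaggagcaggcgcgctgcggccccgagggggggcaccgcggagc
Gal3st1: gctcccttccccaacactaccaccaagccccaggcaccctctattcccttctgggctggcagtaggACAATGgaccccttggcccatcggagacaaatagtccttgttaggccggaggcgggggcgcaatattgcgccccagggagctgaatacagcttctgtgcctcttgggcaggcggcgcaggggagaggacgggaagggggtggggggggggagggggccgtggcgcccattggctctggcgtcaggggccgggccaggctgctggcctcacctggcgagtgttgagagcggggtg
Kdsr: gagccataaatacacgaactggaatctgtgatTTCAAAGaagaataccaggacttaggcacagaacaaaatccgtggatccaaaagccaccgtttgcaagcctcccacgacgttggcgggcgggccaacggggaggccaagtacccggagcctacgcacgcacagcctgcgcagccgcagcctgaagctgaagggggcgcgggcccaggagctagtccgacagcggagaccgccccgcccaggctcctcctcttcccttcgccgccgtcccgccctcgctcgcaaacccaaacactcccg

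GENCODE vM21 transcripts on the same build and strand start at the same base for *Gal3st1*, 15 bases further downstream for *Kdsr* and 33 bases further downstream for *Ugt8a*, and each of these windows reads on into the opening bases of a transcript. Distances below are counted from the RefSeq start.

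The *Ugt8a* window held 1 TCF/LEF match, ATCAAAG on the opposite strand, 228 to 222 bases before the start. The *Kdsr* window, of the gene that was higher in the mutant, also held 1, TTCAAAG at 218 to 212 bases before the start. The *Gal3st1* window held the Sox word ACAATG at 184 to 179 bases before the start, and an overlapping window of an alternative start contained the same letters. A table entry was found for 9 of the 10 genes, 12 windows in all, and *Fa2h* was not among them. TCF/LEF words were present in 2 of the 12 windows and in 16.9% of 32851 promoter windows of the same length. Sox words were present in 3 of the 12, which belong to 2 genes, and in 28.6% of all. The GC content of the 12 windows ran from 54.3% to 81.3%, and its median over all windows was 52.7%. The words hold more A and T than G and C, so these shares are not a like comparison. These are matches of letters, and no binding was measured in the files analysed here.

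The enzymes of *de novo* ceramide synthesis were lower in the mutant with the exception of *Kdsr*. *Sptlc1* and *Sptlc2* encode the core subunits of serine palmitoyltransferase, which condenses serine with palmitoyl-CoA in the committed step. *Sptlc1*, on chromosome 13 from 53428119 to 53472730 (mm9), had 24.7 FPKM in the control library (21.9 to 24.8) and 18.2 FPKM in the mutant (17.1 to 19.3), a log2 ratio of −0.44. *Sptlc2*, on chromosome 12 from 88646032 to 88729204 in the control table, had 16.9 FPKM (15.9 to 17.8) and 13.8 FPKM (13.1 to 14.5), a log2 ratio of −0.29. Intervals were separate for both subunits, and their levels kept a similar proportion, 1.47 in the control and 1.32 in the mutant. *Sptlc3*, a further catalytic subunit, was below 1 FPKM in both libraries.

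*Kdsr* encodes the reductase that turns 3-ketosphinganine into sphinganine and lies on chromosome 1 from 108616987 to 108656319 (mm9). It was the lowest of the 10 genes in the control, at 5.09 FPKM (4.67 to 5.51), and the seventh in the mutant, at 14.6 FPKM (13.1 to 16.2), a log2 ratio of 1.51 that exceeded that of 96.7% of all genes compared. The mutant value was 2.88 times the control value. The half-width of the interval was 8.20% of its midpoint in the control and 10.3% in the mutant, so the value was less precise in the deeper library and at the higher level. For *Sptlc2*, at a similar level in the mutant, the half-width was 5.13%. The mutant table also held 6 rows without a gene name inside the *Kdsr* locus and that of the control held 2. The part of transcript assembly in this difference was not tested.

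*Cers2* encodes the ceramide synthase that attaches very long acyl chains and lies on chromosome 3 from 95119174 to 95127493 (mm9). It had 283.7 FPKM in the control (256.0 to 266.7) and 206.1 FPKM in the mutant (186.4 to 194.2), a log2 ratio of −0.46. In both libraries the FPKM lay above its own interval, as it did above or below for 9.13% (control) and 11.5% (mutant) of all genes compared, and the midpoints of the intervals gave −0.46 as well. The row of *Cers2* overlapped that of *Setdb1* by 47 bases in the control, where *Setdb1* is listed at 0, and by 49 bases in the mutant, where it had 11.3 FPKM; whether fragments were exchanged between these rows was not tested. *Cers2* made up 81.3% of the summed FPKM of the 6 ceramide synthase genes in the control and 77.1% in the mutant. *Cers5* (31.1 and 30.9 FPKM), *Cers1* (22.9 and 19.3 FPKM, in a row shared with *Gdf1*), *Cers4* (8.36 and 7.07 FPKM) and *Cers6* (2.75 and 3.70 FPKM) were lower in level in both, and *Cers3* was below 1 FPKM.

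*Degs1* encodes the desaturase that inserts the double bond of ceramide and lies on chromosome 1 from 184205901 to 184212915 (mm9, control table). It had 118.4 FPKM in the control (114.2 to 123.9) and 79.7 FPKM in the mutant (70.0 to 75.4), where the FPKM lay above its interval. The log2 ratio was −0.57 from the FPKM and −0.71 from the midpoints of the intervals, so it fell on either side of the cutoff. *Degs1* and *Fa2h* both stood at a control level 1.49 times that of the mutant. The related *Degs2*, a desaturase and hydroxylase, was at 4.59 FPKM (4.09 to 5.09) in the control and 2.28 FPKM (2.05 to 2.53) in the mutant, a log2 ratio of −0.98.

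*Ugcg* encodes glucosylceramide synthase, the enzyme that competes for ceramide at the entry to gangliosides, and lies on chromosome 4 from 59202422 to 59235705 (mm9). It had 6.43 FPKM in the control (5.67 to 6.96) and 5.28 FPKM in the mutant (4.69 to 5.70), a log2 ratio of −0.28. It was the only gene of the set whose intervals overlapped. The overlap was narrow, with the upper mutant bound at 5.70 and the lower control bound at 5.67 FPKM, and does not by itself show that the levels were equal. *Ugt8a* exceeded *Ugcg* 47.2-fold in the control and 26.8-fold in the mutant.

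*Galc* encodes galactosylceramidase, the breakdown enzyme of the set, and lies on chromosome 12 from 99440020 to 99497547 (mm9, control table). It had 11.7 FPKM in the control (10.6 to 12.9) and 8.84 FPKM in the mutant (7.98 to 9.27), a log2 ratio of −0.40. The intervals were separate, and 14.5% of all genes compared had a lower ratio. Its row was assembled by Cufflinks in the control and was a reference row in the mutant, where it started at 99440510. The part of this in the difference was not tested.

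**Figure D2:**
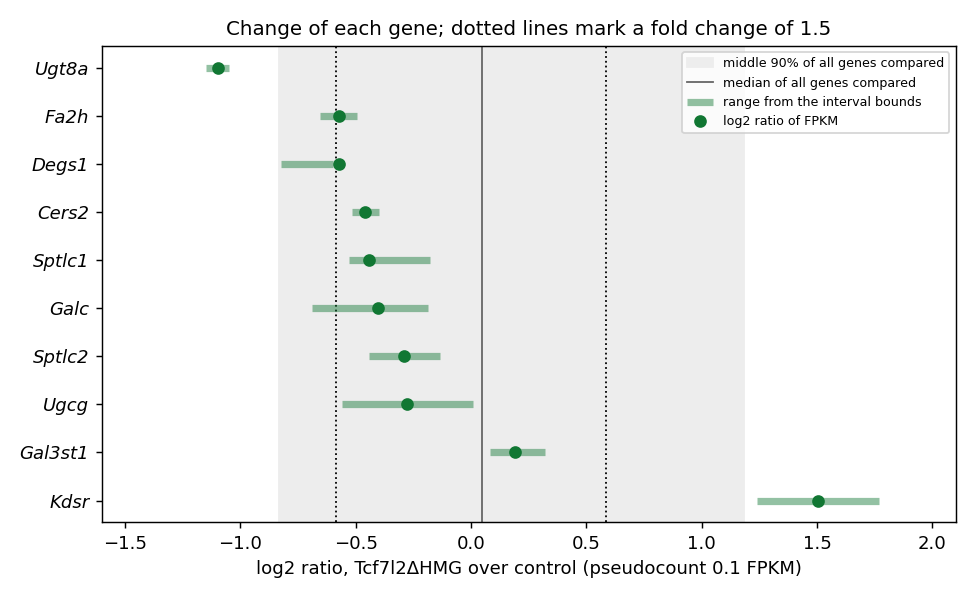
Log2 ratio of *Tcf7l2*ΔHMG over control FPKM for each of the 10 genes (points), with the range obtained from opposite interval bounds (green bars), the median and middle 90% of all genes compared (grey line and band) and a fold change of 1.5 in either direction (dotted). *Ugt8a* at −1.10 and *Kdsr* at 1.51 lie beyond the dotted lines and the grey band, *Fa2h* and *Degs1* at −0.57 lie next to the lower line, and *Galc* at −0.40 lies among the synthesis genes.

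Synthesis and breakdown genes were compared to ask whether they changed in opposite directions. Of the 9 synthesis genes 7 were lower in the mutant, with a median log2 ratio of −0.44, and *Galc* at −0.40 was lower too. Of the 9, 5 had a lower ratio than *Galc* and 4 a higher one. Opposite interval bounds gave *Galc* a range from −0.69 to −0.19, and only *Ugt8a*, *Gal3st1* and *Kdsr* had ratios outside it. The difference between the synthesis median and *Galc* was −0.04, turning to 0.09 when interval midpoints replaced the FPKM. Set against *Galc* within each library, *Ugt8a* went from 25.8 to 16.0 times its level, *Fa2h* from 12.28 to 10.97 times and *Gal3st1* from 6.93 to 10.5 times. Synthesis genes thus lay on both sides of *Galc*, with *Ugt8a* below it and *Gal3st1* above it.

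Further genes of the pathway were grouped by function. Among 9 other genes of ceramide synthesis and its regulation, 7 were lower and 2 higher, with a median log2 ratio of −0.24 and with *Degs2* past the cutoff. The median was −0.15 over all 12 listed genes without the filter on low values. It was −0.05 over 7 genes when *Cers1* and *Sptssa*, whose rows also carry the names of other genes, were left out. *Sptssa*, a small subunit of serine palmitoyltransferase, whose row is shared with a miRNA gene, was at 52.0 FPKM in control (48.4 to 172.5) and 36.6 FPKM in *Tcf7l2*ΔHMG nerves (34.1 to 120.0), with wide, overlapping intervals. *Ormdl1* (log2 ratio −0.53), *Ormdl2* (−0.05) and *Ormdl3* (0.32), which encode inhibitors of that enzyme, differed in direction as deposited, and all were below 0 after rescaling over every row.

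Of 7 genes of sphingomyelin synthesis and ceramide transfer, 3 were lower and 4 higher, with a median of 0.12 and none past the cutoff. *Gltp*, a glycolipid transfer protein, was by far the highest of them, at 323.7 FPKM in the control (320.8 to 335.0) and 269.7 FPKM in the mutant (267.2 to 278.8). Of 10 ganglioside and complex glycolipid synthesis genes, 3 were lower and 7 higher, with a median of 0.27. *A4galt*, which makes globotriaosylceramide, passed the cutoff with 7.36 FPKM in control (6.56 to 8.17) and 12.8 FPKM in *Tcf7l2*ΔHMG nerves (11.8 to 13.7), a log2 ratio of 0.79.

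Of 15 lysosomal breakdown genes, 9 were higher and 6 lower, with a median log2 ratio of 0.17, beside 54.6% of all genes higher. *Psap*, the precursor of the saposins that present galactolipids to their hydrolases, had 385.8 FPKM in control and 481.2 FPKM in *Tcf7l2*ΔHMG nerves (log2 ratio 0.32), and *Arsa*, the arylsulphatase that desulphates sulphatide ahead of *Galc*, had 15.0 and 13.2 FPKM (log2 ratio −0.19). *Asah1*, acid ceramidase, had 29.0 and 38.4 FPKM (log2 ratio 0.40). The exception in size was *Neu4*, a sialidase, at 21.6 FPKM in control (20.4 to 22.8) and 10.6 FPKM in *Tcf7l2*ΔHMG nerves (9.99 to 11.3), a log2 ratio of −1.02.

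Of 12 genes of non-lysosomal breakdown and sphingosine 1-phosphate metabolism, 5 were lower and 7 higher, with a median of 0.05. *Sphk1*, a sphingosine kinase, passed the cutoff with 10.8 FPKM (9.73 to 11.96) in the control and 24.7 FPKM (23.3 to 26.3) in the mutant, a log2 ratio of 1.18. *Gba2*, the non-lysosomal glucosylceramidase, was listed at 0 in the control and at 8.52 FPKM in the mutant, so it passed the filter through the mutant library alone. When at least 1 FPKM was required in both libraries, 11 genes remained, 5 lower and 6 higher, with a median of 0.04. The 3 further synthesis lists, which also hold the *Ormdl* inhibitors and transfer proteins such as *Gltp*, had 13 of 26 genes lower and 13 higher (median 0.01). Both further breakdown lists, which also hold the kinase *Sphk1* and count *Gba2* as higher, had 11 of 27 genes lower and 16 higher (median 0.08). Both medians were close to that of all genes. Rescaling over every row, which moved the median of all genes to −0.63, turned the medians of the 4 lists above 0 to negative values, −0.53 for sphingomyelin synthesis and ceramide transfer, −0.30 for gangliosides, −0.50 for lysosomal breakdown and −0.60 for non-lysosomal breakdown. On that scale *A4galt* (0.12) and *Sphk1* (0.51) no longer passed the cutoff, and *Psap* (−0.35) and *Asah1* (−0.27) turned negative.

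**Figure D3:**
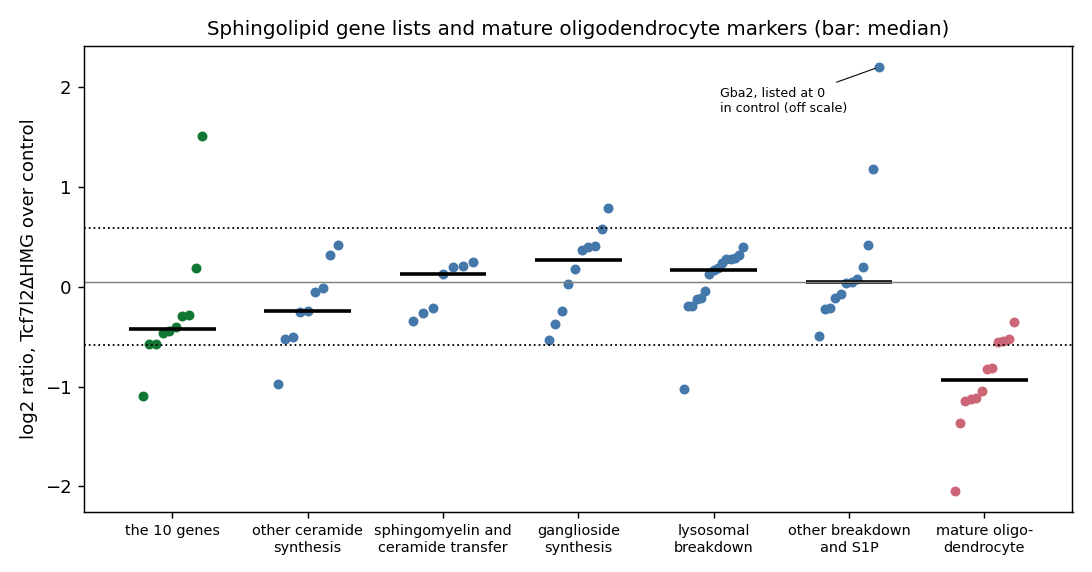
Log2 ratio of *Tcf7l2*ΔHMG over control FPKM for the 10 genes (green), 5 further lists of sphingolipid genes (blue) and mature OL markers (red); each point is a gene, thick bars are list medians, the grey line is the median of all genes compared and dotted lines mark a fold change of 1.5. The median of the 10 genes (−0.42) lies between those of the other sphingolipid lists (−0.24 to 0.27) and that of the mature OL markers (−0.94) (S1P, sphingosine 1-phosphate), and *Gba2*, listed at 0 in the control, is drawn at the upper edge and is off scale.

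The 10 genes were also set beside the mature OL markers, since galactolipid synthesis in this tissue belongs to myelinating OLs. *Ugt8a* was the only one below the median of the markers, by 0.16 on the log2 scale, and 5 of the 12 markers had a lower ratio still. *Fa2h* and *Degs1* were 0.37 above the marker median, with 8 of 12 markers lower. *Sptlc1*, *Cers2* and *Galc* had a higher ratio than 11 of the 12 markers, and *Sptlc2*, *Ugcg*, *Gal3st1* and *Kdsr* a higher one than all 12, with *Gal3st1* 1.13 above the marker median.

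In both libraries the 10 genes covered a wide range of levels. The order in the control ran *Ugt8a*, *Cers2*, *Fa2h*, *Degs1*, *Gal3st1*, *Sptlc1*, *Sptlc2*, *Galc*, *Ugcg* and *Kdsr*, and no neighbours in this order had overlapping intervals. In the mutant *Cers2* stood above *Ugt8a* by 1.45 times, where it had been at 0.94 times its level in the control. *Gal3st1* stood above *Degs1*, and *Kdsr* was level with *Sptlc2* (ratio 1.06, overlapping intervals). *Ugt8a* exceeded 98.5% (control) and 96.1% (mutant) of all genes compared, and *Cers2* 98.2% and 97.3%.

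The number of genes past the cutoff depended on scale. After centring on the median of all genes, after scaling to the 75th percentile and after rescaling named rows to a common sum, *Fa2h* and *Degs1* joined *Ugt8a*, which gave 3 lower genes and 1 higher. Rows without a gene name took 70.7% of all FPKM in the control library and 80.7% in the mutant library. Rescaling over every row gave 8 lower genes and 1 higher, and over all genes it gave 7182 lower and 485 higher in place of 1210 and 2185. *Ugt8a* was lower and *Kdsr* higher by more than 1.5-fold on each of these scales.

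**Figure D4:**
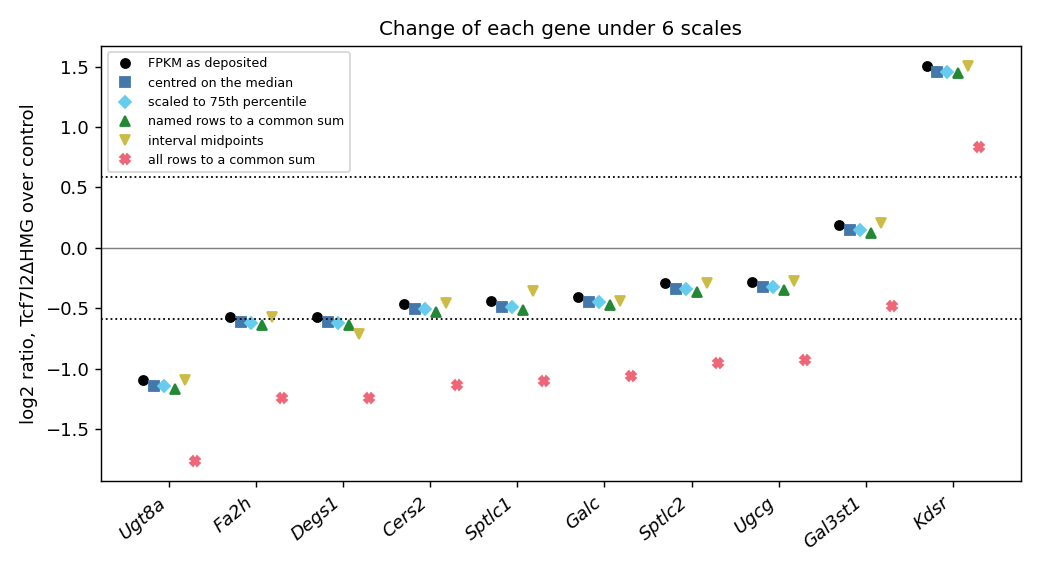
Log2 ratio of *Tcf7l2*ΔHMG over control for each of the 10 genes on 6 scales (symbols), with dotted lines at a fold change of 1.5. *Ugt8a* stays below the lower line and *Kdsr* above the upper line on all 6, and *Fa2h* and *Degs1* cross the lower line. *Sptlc1*, *Sptlc2*, *Cers2*, *Ugcg* and *Galc* cross it only on the scale set by the total over every row. *Gal3st1* is above 0 on 5 scales and at −0.48 on that one.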

How the data were processed

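RNA was isolated from P12 optic nerves of control and *Tcf7l2*ΔHMG mice and sequenced, 1 library per genotype. The authors mapped reads with TopHat at default settings and obtained FPKM with Cufflinks; the deposited tables hold FPKM, the bounds of its confidence interval and a status per row, on mm9 per the submitters' processing notes. Versions are not given in the sources used here.

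Comma-merged names were split, so that genes in a merged row share its value, and rows of a symbol were summed. Each of the 10 genes had 1 unmerged row per library. For 3 of them the row was assembled by Cufflinks in 1 library and was a reference row in the other. These were *Sptlc1*, assembled in the mutant, and *Degs1* and *Galc*, assembled in the control. Genes with status OK in both libraries and at least 1 FPKM in at least 1 were compared. Log2 ratios used a pseudocount of 0.1 FPKM, which understates changes of low genes. Depth was taken as the smallest at which interval bounds of unnamed rows under 100 bases were whole fragments; 3 fragments on 1 kb then equal 0.11 FPKM for the control library and 0.075 for the mutant library.

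The named genes were all 10 members, genes of the further lists past the cutoff, and genes of the same family or next step. Members, lists and rules were chosen with earlier results of these data known. Counting was tested on simulated data. Alternatives were pseudocounts of 1 and 0.01, other filters, scales and row handling, a fold change of 2 and separate intervals; interval midpoints were added after seeing the data. Python 3.11.15, numpy 2.4.6, pandas 2.3.3 and matplotlib 3.10.9 were used.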

Additional observations from a re-analysis of the deposited data

Results flagged for a closer look

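Rows without a gene name entered no comparison. Those inside or within 6000 bases of the 10 genes were summed as interval midpoint times length, in fragments per 1000000, and are given here where the *Tcf7l2*ΔHMG library was more than 1.5 times, and at least 3 fragments per 1000000, above the control. Beside *Ugt8a* they came to 42.9 fragments per 1000000 in the mutant (6 rows, 5491 bases) and 11.6 in the control (2 rows, 1843 bases), the opposite direction to the gene itself. Inside *Kdsr* they came to 5.10 in the mutant (6 rows, 3024 bases) and 1.88 in the control (2 rows, 496 bases). Beside *Gal3st1* they came to 4.32 in the mutant (3 rows, 2440 bases), with no such row in the control. In each case the rows covered more bases in the mutant, so the sums do not compare levels per base. These rows were assembled separately in each library, which differ 1.45-fold in depth, and the part of assembly in these sums was not tested.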

How the results depend on the processing

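*Ugt8a* was the only gene lower by more than 1.5-fold as reported. The count was 3 when log2 ratios were centred on the all-gene median, with 75th percentile scaling or after rescaling named rows to a common sum, 8 after rescaling all rows, 2 with interval midpoints, chosen after seeing the data, and 7 when separate intervals replaced the fold change. The last rule gave 2 higher genes in place of 1. The median log2 ratio of the 10 genes became −1.08 after rescaling all rows, and ranged from −0.49 to −0.40 otherwise. The cause was not tested. Of the values of single genes under alternatives, 107 moved by less than the width that their intervals give the ratio, to either side, and 13 by more. The 107 include the values under other filters, status and row handling, which could not change the ratios of the 10 genes. *Ugt8a* and *Kdsr* kept their direction in every alternative. For 11 other named sphingolipid genes, 118 values stayed within that width and 13 did not. Other filters, status and row handling moved none of their ratios. Of the medians of the further lists and the mature OL markers, 61 stayed within the median width of their genes and 11 did not. The median of the mature OL markers, −0.94, became −0.83 without comma-merged rows and −1.61 after rescaling all rows. Medians of the further lists turned negative after rescaling all rows, as given with them, and that of the non-lysosomal list, 0.05, also fell just below 0 with centring, 75th percentile scaling and rescaling of named rows (−0.02). The depth, with 1 library per genotype, leaves variation between animals unmeasured, and in the control an FPKM under 0.11 on 1 kb rests on fewer than 3 fragments. The counts of the 10 genes did not change with the pseudocount. The filter, status and row handling could not change them, since each gene had status OK, 1 unmerged row and more than 1 FPKM in both libraries. Over all genes, 1210 lower and 2185 higher past the cutoff became 7182 and 485 after rescaling all rows, and 1644 and 3207 without the filter.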
